A study of Mus musculus with 2 samples.

Results

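The genes described here carry the names of G protein-coupled receptors, and their RNA was compared between 1 library of cystic and 1 library of dense organoids grown from mouse pituitary. They were found by a pattern on the gene name, which took in the numbered Gpr genes, the Gprc5 and adhesion (Adgr) genes, and the receptors for nucleotides, adenosine, lysophospholipids, amines, peptides, fatty acids and thrombin. The pattern found 105 of 20647 genes. Organoids are cell clusters that grow in gel culture and keep some of the organisation of the tissue they came from. The cystic culture was at passage 2 and came from a male GHCre/iDTR mouse of 10 weeks, and the dense culture was at passage 4 and came from a male -/iDTR mouse of the same age. Both mice carried the iDTR allele, and the GHCre allele was in the cystic library alone. The labels give neither the promoter behind the Cre nor any toxin treatment. Both cultures were kept in PitOM medium. Organoid type, passage, Cre genotype and mouse differed together between the libraries and cannot be told apart.

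G protein-coupled receptors are membrane proteins that bind a signal outside the cell and switch on a G protein inside it. The G protein class sets the response: Gs raises and Gi lowers the messenger cAMP, Gq opens calcium stores through phospholipase C, and the Gna12 and Gna13 products act on the cytoskeleton. In the pituitary, receptors of this kind receive the hypothalamic releasing factors, and in epithelia they steer fluid secretion, barrier repair and the response to proteases and nucleotides.

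The values are normalized counts, whole read counts divided by 1 size factor per library. A single read was worth 1.05 normalized counts in cystic organoids and 0.956 in dense ones, at depths of 17247431 and 19258313 reads. Where a pair of values is given, the cystic library comes first and the dense library second. Intervals on values and folds are 95% intervals for counting error only, and a gene without a read in 1 library is given a fold against 3 reads there, written as "at least". Reads are PCR products without molecular identifiers, so they are not independent molecules. Each group has a single library, so nothing was tested and no p-value is given. Of the 8 markers of pituitary stem cells, 7 had a row and all 7 reached a mean of 50, but not in one direction. Sox2 stood at 2790 and 3885 and Pitx1 at 1276 and 5614 normalized counts, whereas Sox9, Epcam, Krt8 and Krt18 were higher in cystic organoids, with Krt8 at 18383 and 79.3 and Krt18 at 34692 and 885. The median log2 ratio of the list was 0.90. The 6 hormone genes summed to 3865 and 689, and the keratin of basal stratified epithelium Krt14 stood at 20.9 and 175149. In bulk RNA, fewer cells of a type and less RNA per cell cannot be told apart.

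The libraries differed in which receptors were read at all, mostly among genes with a mean under 50 normalized counts, while the summed share of reads was similar. The 105 genes made up 0.171% of all reads in cystic organoids and 0.144% in dense ones. Reads were found for 80 of them in cystic organoids and for 78 in dense ones, and 53 had reads in both. The share of all genes with reads in both was not computed. The dense library held no read of 27 (25.7%, against 13.7% of all genes) and the cystic library none of 25 (23.8%, against 11.1%). Of the 27, 22 had a mean over both libraries under 50 normalized counts, and of the 25, 18 did. A mean over both libraries of at least 50 normalized counts was reached by 43 of the 105 (41.0%), against 54.6% of all genes. Of these 43, 9 passed 4-fold on the cystic side (20.9%) and 14 on the dense side (32.6%), where 7.86% and 7.65% of all genes at this level did. In either direction the shares were 53.5% and 15.5%. A 2-fold difference was passed by 30 of the 43, against 31.3% of all genes, and an 8-fold one by 7 on the cystic and 10 on the dense side, against 5.32% and 5.18%. The 23 genes have a log2 ratio, taken with a pseudocount of 1, beyond 2 either way. In 17 of the 23, the lower library alone would not have reached 50, so those genes were kept by the library in which they were high. No read was found in 1 of the libraries for 12 of the 43 genes (27.9%), and for 2.46% of all genes at this level. The 12 were 5 genes unread in the dense library (background 1.29%) and 7 unread in the cystic library (background 1.17%). The median log2 ratio of cystic over dense was -0.52 for the 43 genes and -0.03 for all genes at this level. These shares describe 2 libraries.

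**Figure D1:**
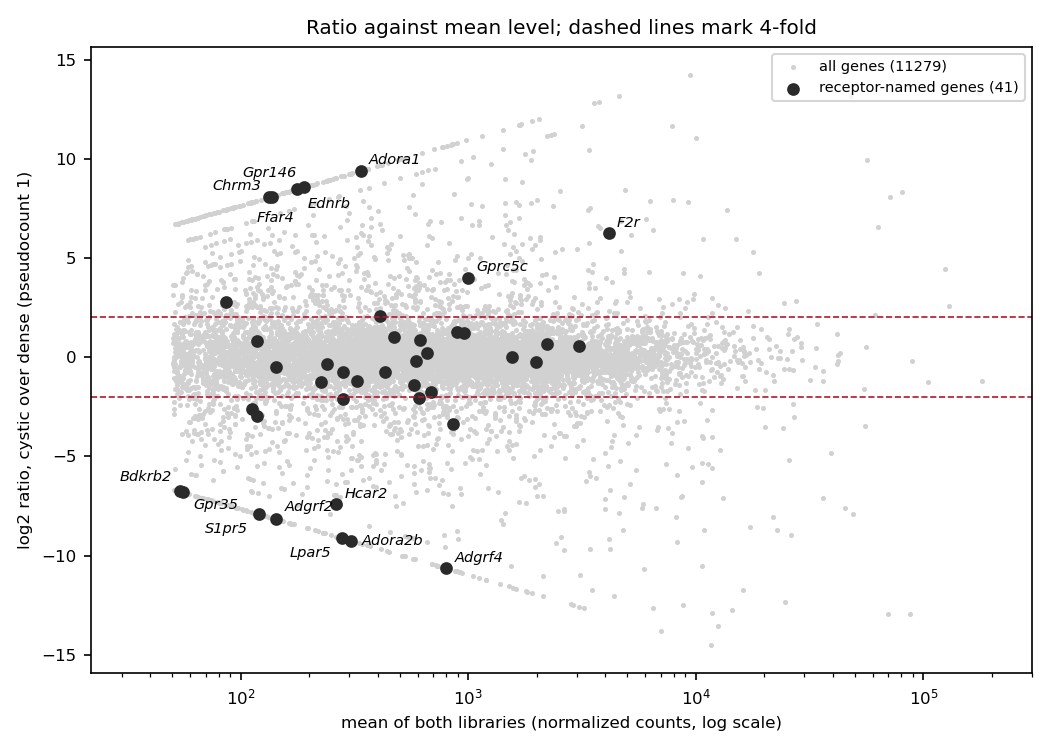
Log2 ratio of cystic over dense (pseudocount 1) against the mean of both libraries in normalized counts, on a log axis, for 11279 genes (grey) and 41 of the 43 receptor-named genes among them (black). The points on the 2 oblique edges are genes without a read in 1 library, and 12 of the black points lie there. Names are given from a log2 ratio of 4 either way.

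These 4 promoters belong to the thrombin receptor gene F2r and to 3 of the 12 genes that had no read in 1 of the libraries. They were picked by hand and do not stand for the other genes past 4-fold. They are RefSeq sequences on GRCm38.p6, read 5′ to 3′, and hold the 250 bases before the annotated start. Capitals mark TGANTCA, a loose pattern for the AP-1 site with any base at N, and GGGCGG, the GC box, on either strand. The AP-1 match in Adora1 and the nearer 1 in Adgrf4 read TGAATCA, with A at the open base.
F2r, chr13:95618467-95618716, minus strand: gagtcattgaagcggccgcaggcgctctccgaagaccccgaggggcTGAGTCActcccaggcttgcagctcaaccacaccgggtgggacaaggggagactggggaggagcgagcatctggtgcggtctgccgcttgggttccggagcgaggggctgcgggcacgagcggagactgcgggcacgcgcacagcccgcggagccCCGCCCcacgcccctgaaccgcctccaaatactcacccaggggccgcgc
Adora1, chr1:134235458-134235707, minus strand: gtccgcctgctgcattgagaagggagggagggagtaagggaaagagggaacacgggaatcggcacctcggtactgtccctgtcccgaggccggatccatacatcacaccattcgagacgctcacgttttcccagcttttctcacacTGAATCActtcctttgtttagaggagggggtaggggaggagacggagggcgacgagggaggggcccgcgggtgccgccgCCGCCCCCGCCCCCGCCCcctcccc
Adora2b, chr11:62248734-62248983, plus strand: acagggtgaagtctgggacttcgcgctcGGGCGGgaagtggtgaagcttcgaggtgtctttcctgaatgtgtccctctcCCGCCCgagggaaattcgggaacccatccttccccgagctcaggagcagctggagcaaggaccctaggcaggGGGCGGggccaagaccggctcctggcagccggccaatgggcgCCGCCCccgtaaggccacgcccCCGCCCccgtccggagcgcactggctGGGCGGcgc
Adgrf4, chr17:42692285-42692534, minus strand: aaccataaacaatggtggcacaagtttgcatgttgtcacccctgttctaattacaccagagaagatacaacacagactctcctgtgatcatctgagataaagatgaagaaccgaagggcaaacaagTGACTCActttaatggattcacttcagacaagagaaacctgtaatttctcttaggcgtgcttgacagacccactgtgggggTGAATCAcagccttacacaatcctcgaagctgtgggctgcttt
The F2r and Adora1 promoters, of genes higher in cystic organoids, hold both motifs. The Adora2b promoter, of a gene higher in dense organoids, holds 6 GC boxes and no AP-1 letters, and the Adgrf4 promoter, of another, holds 2 AP-1 matches at 124 and 43 bases before the start and no GC box. CpG pairs numbered 24 in F2r, 22 in Adora2b, 19 in Adora1 and 3 in Adgrf4, where the median of all promoters in the table was 6. Adora1 has a second annotated start, which is not shown.

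Of the 23 genes past 4-fold, 17 had a promoter in the table. At least 1 match to the loose AP-1 pattern was found for 4 of the 17 genes (F2r, Adora1, Adgrf4 and Gpr35) and in 6.75% of all 32851 promoters. The GC box was found for 11 of 17 genes and in 32.7% of promoters. The letters TAATCC, read by PITX factors, were found for 4 genes and in 6.25% of promoters, the SOX letters AACAAT for 1 gene and in 9.42%, and the TATA box TATAAA for 1 gene and in 12.4%. The cAMP response element TGACGTCA was found for 0 of 17 genes and in 1.55% of promoters. A gene may have several promoters in the table, so shares of genes and shares of promoters are not like for like. A match is a string of letters and was not tied to binding.

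Among the protease-activated receptors, F2r was the member with the most reads in the cystic library. F2r (ENSMUSG00000048376) encodes the thrombin receptor, which is switched on when a protease cuts its outer end. It had 8158 normalized counts in cystic organoids (7978 to 8341) and 107 in dense organoids (88.2 to 129), 76.2-fold with cystic higher (63.2 to 92.7). It took 26.4% of the normalized counts of all 105 genes in the cystic library. Per kilobase of exon it ranked first among them there, with 2445 normalized counts per kilobase against 32.1 in dense organoids. F2rl1, a relative cut by trypsin-like proteases such as matriptase, had 625 and 314 (1.99-fold with cystic higher, 1.74 to 2.29). F2rl2 had 3 and 0 reads. The gap between the libraries was therefore wide for 1 of the 3 genes. Of the proteases, St14, which encodes matriptase, had 8990 and 5017 normalized counts, and Prss8, which encodes prostasin, had 1931 and 1122. F3, which encodes the tissue factor that starts thrombin formation, had 143 and 457 (3.19-fold with dense higher, 2.63 to 3.88). Thrombin receptor is also carried by endothelium and fibroblasts. The 5 endothelial markers summed to 25.1 and 4.78 normalized counts, and 2 of them in cystic organoids and 4 in dense ones were at 0 or had no row. The 5 fibroblast and pericyte markers summed to 84.7 and 2.87, of which Col3a1 made 70.1 and 0.956, and Pdgfra had 1 and 0 reads. Their part in the F2r difference was not tested.

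**Figure D2:**
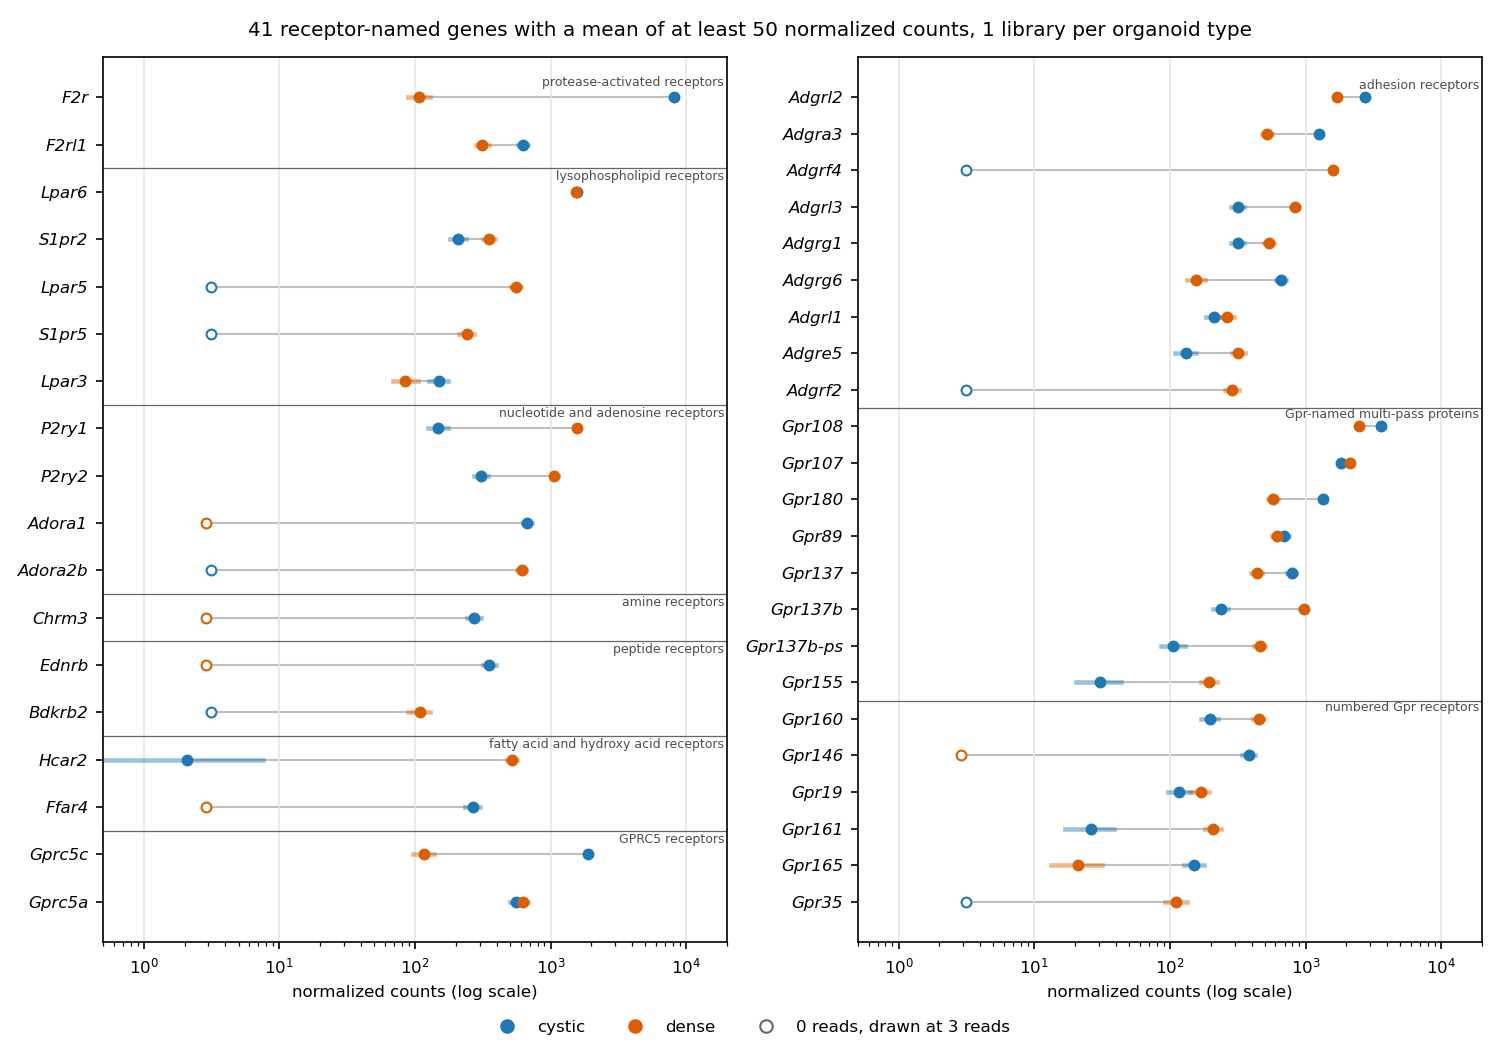
Normalized counts (log axis) of 41 of the 43 receptor-named genes with a mean of at least 50, by family, in the cystic (blue) and the dense library (orange). Points are single libraries, pale bars are 95% Poisson intervals for counting error, and open points mark 0 reads, drawn at 3 reads. F2r at 8158 is the highest cystic point drawn and Gpr108 at 2480 the highest dense point drawn.

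The adenosine receptors were split between the libraries. Adora1 (ENSMUSG00000042429), the Gi-coupled receptor that lowers cAMP, had 674 normalized counts in the cystic library (623 to 728) and was not read in the dense library, a gap of at least 235-fold. Adora2b (ENSMUSG00000018500), the Gs-coupled receptor that raises cAMP, was not read in the cystic library and had 610 normalized counts in the dense library (563 to 659), a gap of at least 194-fold. Each library thus held reads of 1 of this pair and none of the other. Exons of Adora1 overlap those of Mybph on the opposite strand over 20.1% of their length, and Mybph itself had 19.9 and 0 normalized counts. Of the enzymes around adenosine, Nt5e and Ada were higher in dense organoids, as Adora2b was. Nt5e, which makes adenosine outside the cell, had 2 reads in the cystic library and 1804 normalized counts in the dense library (862-fold with dense higher, 238 to 7124). Ada, which degrades adenosine, had 31.4 and 980 (31.2-fold, 21.7 to 46.5). Adk, which returns adenosine to AMP inside the cell, had 1427 and 1354 (1.05-fold, 0.977 to 1.14). Over the whole list of 40 genes that supply or clear a ligand, 21 reached a mean of 50. Of these, 3 passed 4-fold on the cystic side and 4 on the dense side, against 7.86% and 7.65% of all genes.

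The nucleotide receptors were higher in dense organoids where they were well read. P2ry1 (ENSMUSG00000027765), an ADP receptor, had 149 and 1557 normalized counts, 10.5-fold with dense higher (8.83 to 12.5). P2ry2, the ATP and UTP receptor of secretory epithelia, had 309 and 1062 (3.44-fold with dense higher, 3.02 to 3.93). P2ry6, a UDP receptor, was not read in the cystic library and had 26.8 normalized counts in the dense library. The receptors of blood and immune cells among them were scarce, with P2ry13 at 2 and 0 reads and P2ry14 at 12 and 4 reads. Entpd3 and Entpd2, which break down nucleotides outside the cell, had 868 and 284, and 146 and 217 normalized counts, in cystic and dense organoids. Panx1, an ATP release channel, had 299 and 229. P2ry1 exons overlap a gene model on the opposite strand, which had 1.05 and 18.2 normalized counts.

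Lysophosphatidic acid (LPA) and sphingosine 1-phosphate are lipid signals with a receptor family each, and both families had a member read in dense organoids alone. Lpar5 (ENSMUSG00000067714) was not read in the cystic library and had 554 normalized counts in the dense library (510 to 601), a gap of at least 177-fold. S1pr5 (ENSMUSG00000045087) was not read in the cystic library and had 240 normalized counts in the dense library (211 to 272), a gap of at least 76.4-fold. The other members stayed within 4-fold or were low. Lpar6, which in human hair follicles works with the lipase that makes its ligand, had 1561 and 1537, a fold of 1.02 (0.946 to 1.09), so its interval holds equal levels. Its exons lie partly within Rb1 on the opposite strand, over 7.56% of their length. Lpar3 had 150 and 85.1 (1.76-fold with cystic higher, 1.34 to 2.32). S1pr2, which acts on the cytoskeleton, had 208 and 354 (1.70-fold with dense higher, 1.43 to 2.03). Lpar1, Lpar2, S1pr3 and S1pr4 had at most 28.2 normalized counts in either library. Of the enzymes and carriers of these lipids, some passed 4-fold and others did not. Enpp2, the enzyme autotaxin that makes LPA outside cells, had 192 and 17.2 (11.2-fold with cystic higher, 6.88 to 19.3). Liph, a lipase that makes LPA at the membrane, had 12.6 and 201 (16.0-fold with dense higher, 8.96 to 31.4). Spns2, the carrier that exports sphingosine 1-phosphate, had 1900 and 11803 (6.21-fold with dense higher, 5.91 to 6.53). Sphk1 and Sphk2, which make it, had 150 and 75.5, and 1320 and 1664, both within 4-fold. Sgpl1, of the same list, had 3336 and 4308 (1.29-fold with dense higher, 1.23 to 1.35).

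**Figure D3:**
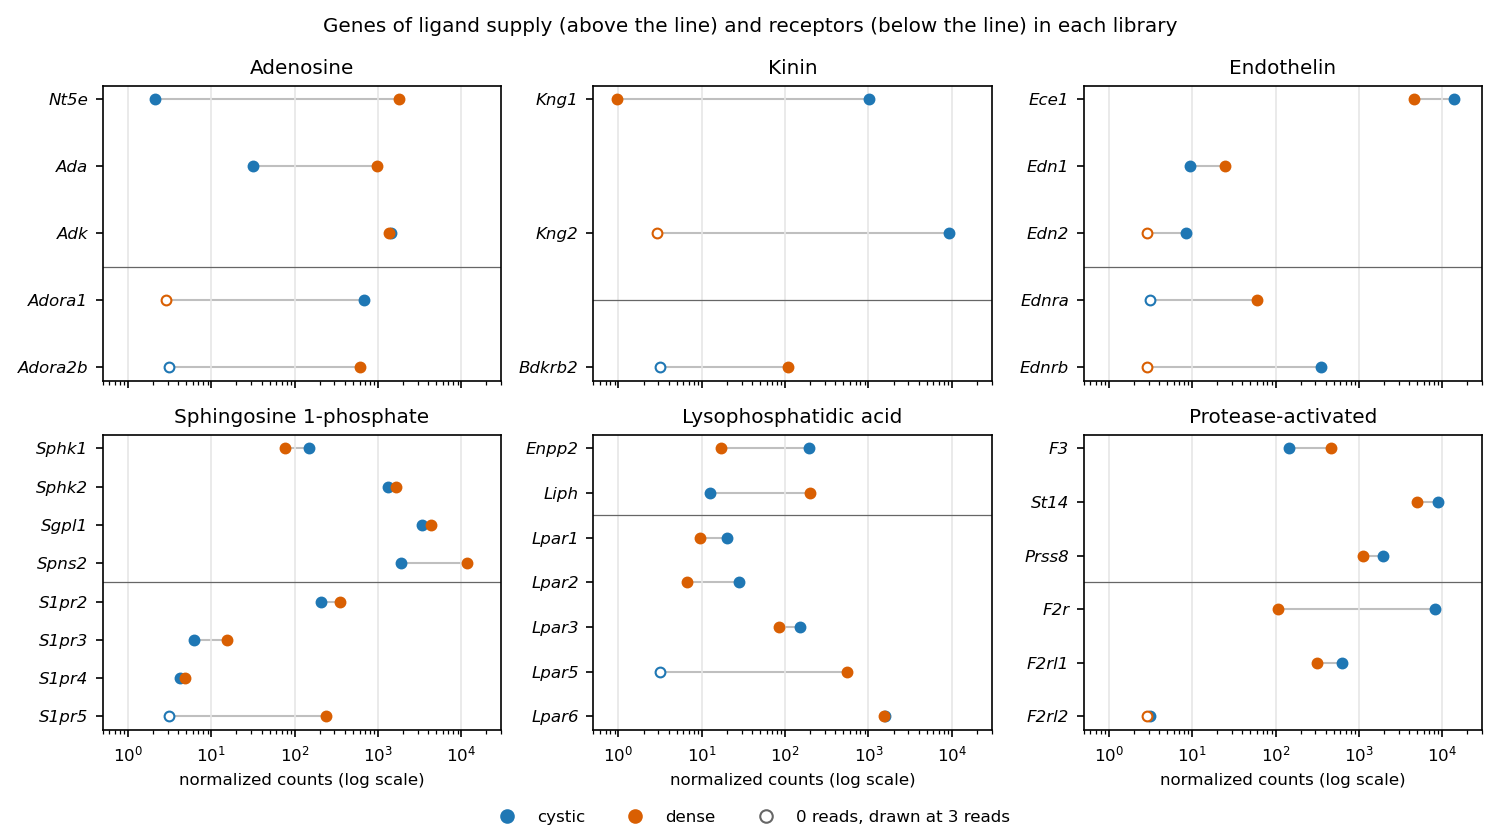
Normalized counts (log axis) of genes that supply or clear a ligand (above the line in each panel) and of its receptors (below the line), in the cystic (blue) and the dense library (orange). Open points mark 0 reads, drawn at 3 reads. Filled in blue alone are Adora1, Ednrb, F2rl2, Kng2 and Edn2, and in orange alone Adora2b, Ednra, Bdkrb2, Lpar5 and S1pr5.

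The peptide receptors were few, and each of the better read ones was found in 1 library. Ednrb (ENSMUSG00000022122), the endothelin receptor that takes all endothelins alike, had 354 normalized counts in the cystic library (317 to 393) and was not read in the dense library, a gap of at least 123-fold. Ednra, its relative, showed the opposite at a lower level, with 0 and 59.3 normalized counts (dense interval 45.4 to 76.0), a gap of at least 18.9-fold. The mean of Ednra lies under 50, so it is outside the 43. The endothelin genes Edn1 and Edn2 were low, at 9.42 and 24.9, and 8.37 and 0 normalized counts. Ece1, which cuts the precursor to the active peptide, had 13891 and 4621 (3.01-fold with cystic higher, 2.91 to 3.11). Bdkrb2 (ENSMUSG00000021070), the bradykinin receptor, was not read in the cystic library and had 108 normalized counts in the dense library (89.02 to 130), a gap of at least 34.4-fold. The kininogen genes that supply bradykinin had their reads in the other library. Kng1 had 1005 normalized counts in the cystic library and 1 read in the dense library (1052-fold with cystic higher, 188 to 41586), and Kng2 had 9163 normalized counts and none, a gap of at least 3195-fold. Reads of these close copies may be shared.

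Receptors through which hypothalamic and local peptides act on the gland mostly had few reads, apart from Vipr1 and Kiss1r. Sstr2, the somatostatin receptor found, had 0 and 4 reads, Galr2, a galanin receptor, 1 and 11, and the neuropeptide Y receptors Npy1r and Npy2r 0 and 1, and 16 and 0 reads in cystic and dense organoids. The growth hormone-releasing hormone receptor gene Ghrhr had 7 and 0 reads, Gnrhr 1 and 0 and Crhr1 0 and 1. Of 16 such receptors outside the name pattern, 7 had a row and 1 passed a mean of 50, Vipr1, a receptor for vasoactive intestinal peptide, with 182 and 119 normalized counts (1.54-fold with cystic higher, 1.21 to 1.95). Kiss1r, the kisspeptin receptor, had 63.8 and 28.7 normalized counts (2.23-fold with cystic higher, 1.42 to 3.57). Of the receptors named with few reads, Npy2r was at least 5.84-fold higher in the cystic and Galr2 10.1-fold higher in the dense library (1.46 to 433).

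Of 15 amine receptor names, 2 reached a mean of 50. Chrm3 (ENSMUSG00000046159), the Gq-coupled muscarinic receptor that drives gland secretion, had 273 normalized counts in the cystic library (241 to 308) and was not read in the dense library, a gap of at least 95.2-fold. Adrb1 and Adrb3, which encode Gs-coupled receptors for noradrenaline and adrenaline, were not read in the cystic library and had 52 and 13 reads in the dense library. The gap for Adrb1, at 49.7 normalized counts, was at least 15.8-fold, though its mean is under the filter. The serotonin and alpha adrenergic genes split by library at low counts. Htr5b, Htr1d and Adra2b had 51, 21 and 14 reads in the dense library and 0 in the cystic library. Htr3a, which encodes an ion channel and not a G protein-coupled receptor, had 28 and 0 reads. Adra1a, Adra2a, Adra2c, Htr2a, Htr2b, Htr6 and Chrm2 had 1 to 7 reads in the cystic library alone, at or near the 3 reads that a 0 allows.

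The metabolite receptors had opposite values. Ffar4 (ENSMUSG00000054200), a receptor of long-chain fatty acids, had 266 normalized counts in the cystic library (234 to 300.5) and was not read in the dense library, a gap of at least 92.7-fold. Hcar2 (ENSMUSG00000045502), a Gi-coupled receptor of hydroxy acids and niacin, had 2 reads in the cystic library and 523 normalized counts in the dense library (480.0 to 569), 250-fold with dense higher (68.8 to 2069). The GPRC5 genes, some of which retinoic acid induces in human cells, differed among themselves. Gprc5c (ENSMUSG00000051043) had 1879 and 116, 16.2-fold with cystic higher (13.5 to 19.7). Gprc5a had 551 and 626 (1.14-fold with dense higher, 1.01 to 1.28). Gprc5b, below the filter, had 8.37 and 87.9 (10.5-fold with dense higher, 5.11 to 25.1), and 13.1% of its exon length overlaps Iqck on the opposite strand.

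The adhesion receptors have long outer ends that bind neighbouring cells or matrix, and those measured included both wide and narrow differences. Of 17 genes, 9 reached a mean of 50, with 1 past 4-fold on the cystic side, 2 on the dense side and 6 within, where 15.5% of all genes passed it in either direction. Adgrf4 (ENSMUSG00000023918) was not read in the cystic library and had 1597 normalized counts in the dense library (1522 to 1676), a gap of at least 509-fold and the widest ratio of the 43. Adgrf2 (ENSMUSG00000057899) was not read in the cystic library and had 287 normalized counts in the dense library (255 to 321), a gap of at least 91.4-fold. The third gene of this subfamily found, Adgrf1, had 0 and 16 reads. All 3 Adgrf genes were therefore without a read in cystic organoids, as were 23.8% of the 105 genes and 11.1% of all genes. Adgrg6, needed for myelination by Schwann cells, had 661 and 156 (4.24-fold with cystic higher, 3.57 to 5.07), with a lower bound under 4-fold. Adgrl2, a latrophilin, was the adhesion receptor with the highest mean, at 2727 and 1711 (1.59-fold with cystic higher, 1.50 to 1.69). Its relatives leaned to the dense library, Adgrl3 with 316 and 834 (2.64-fold, 2.31 to 3.02) and Adgrl1 with 212 and 266 (1.25-fold, 1.04 to 1.51), 12.9% of whose exon length overlaps a gene model on the opposite strand. Adgra3 had 1260 and 520.0 (2.42-fold with cystic higher, 2.19 to 2.69) and Adgrg1, known for its part in cortex development, 317 and 542. Adgre5, the leukocyte and epithelial antigen CD97, had 132 and 320 (2.43-fold with dense higher, 1.97 to 3.01). Ddx39 on the opposite strand overlaps 23.8% of its exon length and had 1926 and 991. The endothelial member Adgrl4 had 12 and 0 reads.

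Among the other numbered receptors, most had few reads and those well read were split. Gpr146, which in mouse liver affects cholesterol secretion, had 381 normalized counts in the cystic library and was not read in the dense library, a gap of at least 133-fold. Gpr35 was not read in the cystic library and had 111 normalized counts in the dense library, a gap of at least 35.3-fold. Gpr161, which in mouse restrains Hedgehog signalling at the primary cilium, had 26.2 and 209 (8.004-fold with dense higher, 5.28 to 12.6). Gpr165, an orphan receptor, had 151 and 21.0 (7.16-fold with cystic higher, 4.55 to 11.8). Gpr160 had 198 and 453 (2.29-fold with dense higher, 1.93 to 2.73) and Gpr19 117 and 168 (1.44-fold, 1.13 to 1.84). The other 26 of the 33 numbered receptors were below the filter. Among them, Gpr132 had 24.9 normalized counts in the dense library and was not read in the cystic library, and Gpr4, a proton-sensing receptor, had 4 and 0 reads. Of the 62 genes below the filter in all families, 35 had at most 10 reads in each library.

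**Figure D4:**
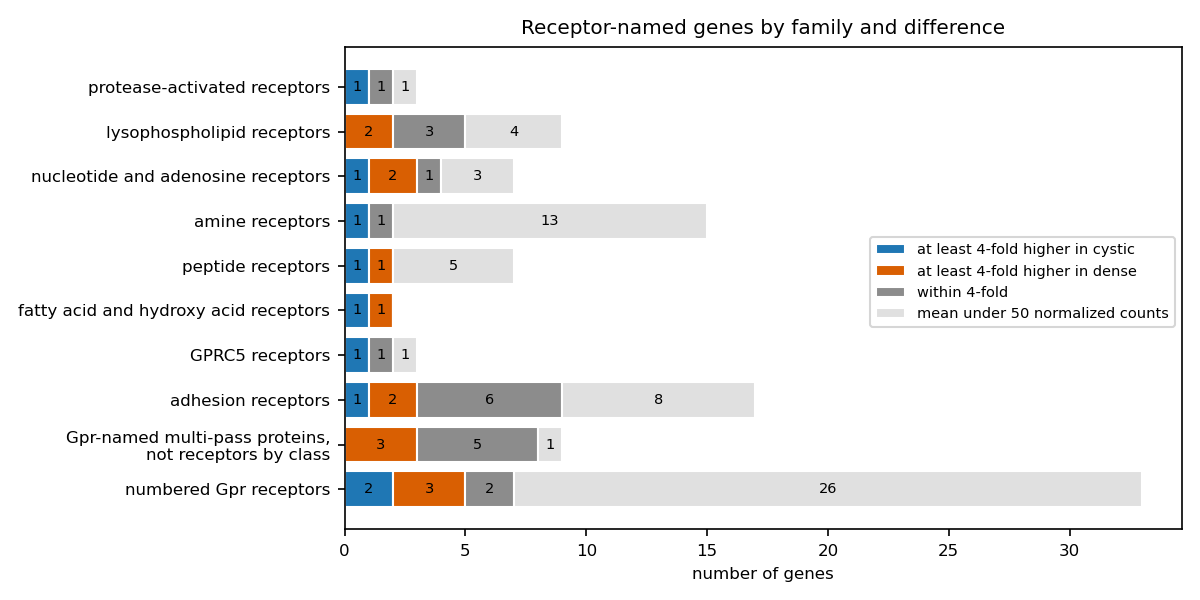
Number of genes in each family that passed 4-fold on the cystic side (blue) or the dense side (orange), stayed within it (dark grey) or lay under a mean of 50 normalized counts (light grey). The 33 numbered Gpr receptors hold 26 genes under that mean, and the amine receptors 13 of 15.

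A further 9 rows bear Gpr names but encode multi-pass proteins of the Golgi, lysosome and other membranes that are not placed in the receptor classes. Of the 8 that reached a mean of 50, 5 stayed within 4-fold and 3 were past it on the dense side, where 7.65% of all genes were. Gpr108 and Gpr107, of the Golgi, had 3629 and 2480, and 1827 and 2135 normalized counts in cystic and dense organoids. Gpr89, a Golgi anion channel gene, had 698 and 613, Gpr180 1342 and 578 and Gpr137 789 and 439. Genes on the opposite strand overlap 24.8% of the exon length of Gpr89 (Pdzk1) and 15.4% of that of Gpr137 (Bad). The remaining measured genes of this group differed more. Gpr137b had 236 and 972 (4.11-fold with dense higher, 3.56 to 4.77), and its pseudogene Gpr137b-ps 106 and 460 (4.35-fold, 3.50 to 5.45). Reads of these copies may be shared, so they are not separate observations. Gpr155, a lysosomal cholesterol sensor in human cells, had 30.3 and 194 (6.40-fold with dense higher, 4.32 to 9.79). Without these rows, 9 of 35 genes passed 4-fold on the cystic side (25.7%) and 11 on the dense side (31.4%). The shares of all genes were 7.86% and 7.65%.

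The G proteins behind the receptors passed 4-fold about as often as other genes. Of 13 alpha subunit genes, 11 reached a mean of 50, and 1 of these passed 4-fold on each side, where 7.86% and 7.65% of all genes did. The subunit of Gs, Gnas, had 8490 and 4321 (1.96-fold with cystic higher, 1.89 to 2.04), that of Gi with the highest mean, Gnai2, 6478 and 5392, and Gnaq and Gna11 of the Gq class 958 and 942, and 2061 and 2074. Gna15, a Gq class subunit that couples to many receptors, had 25.1 and 751 (29.9-fold with dense higher, 19.96 to 47.0). Gnaz, of the Gi class, had 96.2 and 13.4 (7.19-fold with cystic higher, 4.08 to 13.7). All 6 measured beta and gamma subunit genes were within 4-fold, with Gng12 at 1487 and 4488 the widest. These lists were chosen with earlier results of the same data in view.

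Several enzymes after the G protein passed 4-fold, a difference that 7.86% of all genes at this level showed on the cystic side and 7.65% on the dense side. Of 4 measured cyclase and phospholipase C beta genes, 2 did so on the cystic side and 0 on the dense side. Plcb4, a phospholipase C of the Gq pathway, had 3382 and 65.0 (52.0-fold with cystic higher, 40.9 to 67.2), whereas Plcb3 had 1078 and 3094 (2.87-fold with dense higher, 2.68 to 3.08). Adcy6, which makes cAMP, had 347 and 7.65 (45.4-fold with cystic higher, 22.8 to 106), and Adcy8, below the filter, was not read in the cystic library and had 92.7 normalized counts in the dense library. Of 8 measured cAMP phosphodiesterase genes, 5 passed 4-fold on the cystic side and 0 on the dense side, against the same shares. Pde4b had 3372 and 481 (7.01-fold, 6.38 to 7.72), Pde4d 146 and 2.87 (51.1-fold, 17.1 to 251), Pde7b 110 and no read, and Pde10a 153 and no read. Adcy6, Pde4a, Pde4d, Pde7b and Pde10a had under 50 normalized counts in the dense library. Those genes were therefore kept by the cystic library, in which they were high. Pde3b, with 2221 and 5366, was 2.42-fold higher in dense organoids (2.30 to 2.54).

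Among regulators that shorten the signal and genes that the signal induces, the counts past 4-fold are to be read against 15.5% of all genes in either direction. Rgs2, which switches Gq off, had 2289 and 10.5 (218-fold with cystic higher, 121 to 437). Rgs3 had 164 and 22.9 (7.16-fold with cystic higher, 4.64 to 11.5), and Rgs12 had 274 and 3094 (11.3-fold with dense higher, 9.95 to 12.9). In all, 7 of 19 RGS genes were measured, with 2 past 4-fold on the cystic side and 1 on the dense side. Of 8 measured receptor kinase and arrestin genes, 1 passed 4-fold, near the share of all genes, Arrb1 with 103 and 17.2 (5.96-fold with cystic higher, 3.58 to 10.5), and Grk2 had 1666 and 2735. Of 9 measured genes that cAMP and calcium signals are known to induce, 2 passed 4-fold, both on the cystic side, Nr4a1 with 3396 and 250.4 (13.6-fold, 11.95 to 15.4) and Crem with 742 and 76.5 (9.70-fold, 7.69 to 12.4). The other 7 stayed within 4-fold, among them Egr1 at 3700.3 and 10410.4 and Fos at 2851 and 1800.

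**Figure D5:**
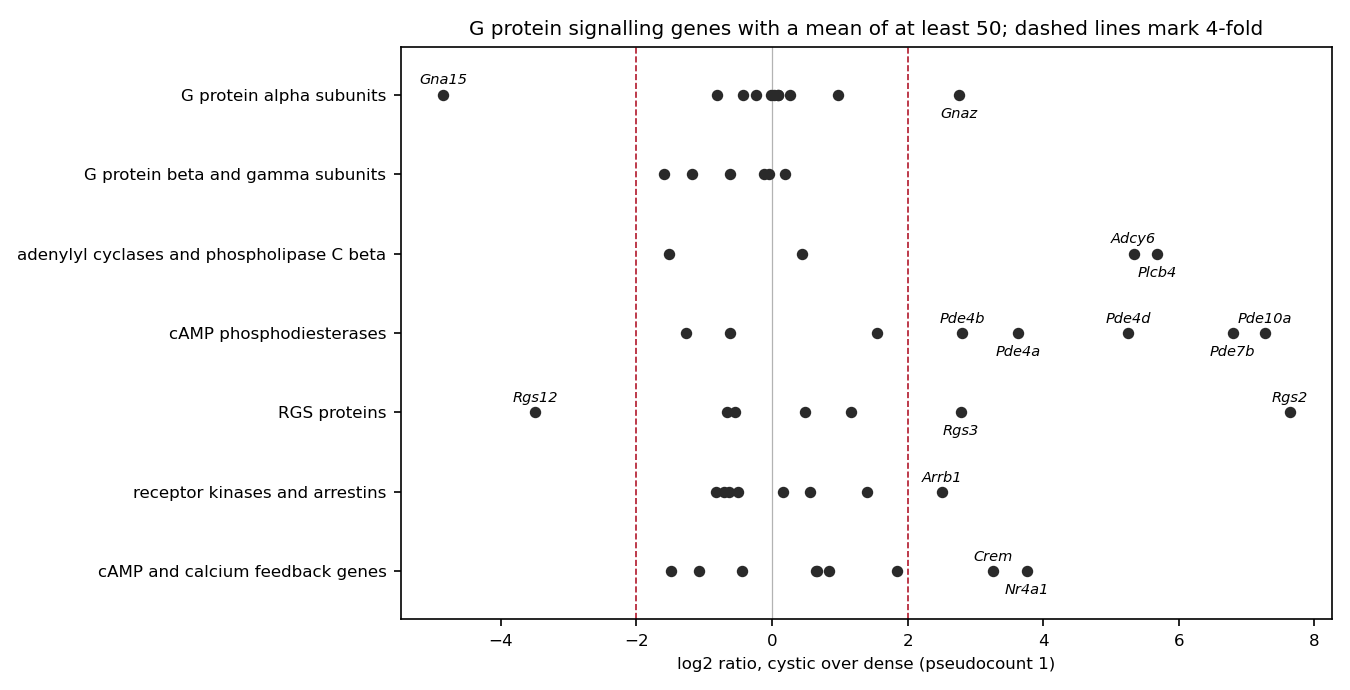
Log2 ratio of cystic over dense (pseudocount 1) for measured genes of G protein subunits, effectors, regulators and feedback targets, 1 point per gene; dashed lines mark 4-fold and names are given beyond them. All 5 named phosphodiesterase genes lie on the cystic side, and Gna15 and Rgs12 on the dense side.

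Markers of non-epithelial cells that carry some of these receptors had a mean under 50 or no row, except Cd68 and 2 neuronal genes. Among those under 50, the fibroblast gene Col3a1 had 70.1 and 0.956 normalized counts. Among the leukocyte and microglia markers, Ptprc had 1 and 0 reads, Csf1r 1 and 1, and Aif1 47.1 and 0 normalized counts, while the lysosomal gene Cd68 had 373 and 3123. Of 4 neuron and glia markers, Tubb3 had 2.09 and 164 normalized counts, Snap25 17.8 and 128, and Gfap 4.18 and 3.82. The red cell genes summed to 3.14 and 0.956. The part of such cells in the receptor differences was not tested.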

How the data were processed

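RNA-seq was done on 1 library of cystic and 1 of dense mouse pituitary organoids, amplified with Smart-seq v4 per the labels' protocols. The authors deposited 1 table of normalized signal per gene and library. The submitters' processing notes name mm9, DESeq 1.32.0 and TopHat, and no source used here states how reads were counted, on which strand or with which gene models. All values in the deposited table (100%) were whole multiples of the smallest value of their library, within 0.001 read, so reads were recovered as signal over that value. With 1 library per group no count test was run on them. Of 20649 rows, 2 spike-in rows were left out, with 0 and 2 reads.

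The log2 ratio was taken with a pseudocount of 1, for genes with a mean of at least 50 normalized counts, and a difference was counted from 4-fold. Intervals are exact Poisson (values) and Clopper-Pearson (folds) at 95%, from scipy 1.17.1. Exon lengths and overlaps came from GENCODE M21 on GRCm38, which held all 105 genes, and no coordinates were taken from it. Promoters came from RefSeq (GRCm38.p6), which had 81 of the 105. Alternatives were other pseudocounts, filters, thresholds and scalings (edgeR 4.0.16). Members with a mean of at least 50 could be named, lower ones where their family is described, and from each pathway list up to 4 genes with the widest ratio and 2 with the highest mean. Other list genes named beside their receptors or subunits were chosen after their values were seen. The steps were tested on simulated counts. The members and lists were chosen with earlier results of these data known. Motifs and promoters shown were chosen after the values were seen. The values of 3 of the 105 genes are not reported here.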

Additional observations from a re-analysis of the deposited data

How the results depend on the processing

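The counts of genes past 4-fold, 9 on the cystic and 14 on the dense side, stayed at 9 and 14 under scaling to total reads, upper quartile scaling and TMM scaling, and all 23 kept their calls there. A pseudocount of 10 gave 9 and 13 (51.2%, against 14.8% of all genes), losing Gpr137b. A pseudocount of 50 gave 7 and 8 (34.9%, against 11.6%) with a median log2 ratio of -0.38. A mean of at least 200 left 29 genes with 4 and 8 past 4-fold (41.4%, against 12.6% of all genes) and a median of -0.32. A mean of at least 10 gave 11 and 22 of 61 genes (54.1%, against 19.4%). With no filter the counts were 27 and 33 of 105 (57.1%, against 22.4%). The median then turned to 0.19, against 0.04 for all genes. A 2-fold threshold gave 11 and 19 (69.8%, against 31.3%), and 8-fold 7 and 10 (39.5%, against 10.5%). A whole counting interval beyond 4-fold gave 8 and 12 (46.5%, against 13.9%). The median was -0.76 without the Gpr-named rows outside the receptor classes, and also -0.76 without 10 genes with at least 10% of their exon length overlapping another gene. That last alternative was chosen after seeing the data. The ratios of genes at 0 shrink with a larger pseudocount by construction. No paired analysis was possible because each group has 1 library. Depth limits genes under about 3 reads in a library, and no setting measures the spread between cultures or mice.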

Other observations

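Some of the receptor genes neighbour each other in the RefSeq annotation, with at most 1 protein-coding gene between them. The neighbours described here leaned to the same library, by gaps of unlike size, though F2rl2 and Gpr142 had few reads. Not all neighbours are described, and a shared direction did not hold in every group of neighbours. On chromosome 13, F2r, F2rl1 and F2rl2 lie together, and the gap between libraries was 76.2-fold for F2r, 1.99-fold for F2rl1, and F2rl2 had 3 reads at most. On chromosome 17, Adgrf2 and Adgrf4 lie together, and both had no read in cystic organoids. On chromosome 7, P2ry2 and P2ry6 were both higher in dense organoids. On chromosome 11, Gprc5c had 1879 and 116 normalized counts, and its neighbour Gpr142 had 6 reads in cystic and 0 in dense organoids.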
